A study of Homo sapiens with 6 samples.

Results

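Antiviral effector genes of the interferon response were followed in LPS-stimulated macrophages after silencing of the circular RNA hsa_circ_0004287. The set held 36 named genes, the interferon-stimulated effectors outside the IFIT, OAS, GBP and ISG15 systems, and all 36 were found by symbol among the 19976 genes of the deposited table. All 36 also passed the filter on low counts. The cells were THP-1, an established line from a human monocytic leukaemia, so every library derives from 1 line. Both groups had been made macrophage-like with 50 ng/ml of the phorbol ester PMA for 48 h. They were then transfected with 200 nM siRNA for 48 h and given 200 ng/ml LPS, a bacterial cell wall component, for 3 h. In the recorded treatments the groups differed in the siRNA alone: 3 libraries received a negative control (NC) siRNA and 3 received hsa_circ_0004287 siRNA (circ siRNA). Untransfected or LPS-free cells were not analysed here. Since no label ties the libraries of a group to separate cultures, their spread, on which every p-value rests, may be technical. The circular RNA itself was not analysed here, and the knockdown was therefore not checked against its target.

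Type I and type III interferons are secreted by cells that sense microbes and act through receptors coupled to JAK kinases. These kinases activate ISGF3, a transcription factor complex that binds the interferon-stimulated response element (ISRE) in promoters. In macrophages LPS engages TLR4, whose TRIF branch activates IRF3 and induces interferon beta, and the secreted interferon then acts back on the cells. The effectors made in response block viruses at entry, replication, translation and release.

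Most promoters of the effectors held the ISRE letters. RefSeq promoter windows, from 250 bases before to 50 bases after the annotated start (GRCh38.p14), were matched by symbol for 32 of the 36 genes, with 45 windows in all. The ISRE core GAAANNGAAA, read on both strands (TTTCNNTTTC), stood in at least 1 window of 22 of the 32 genes (68.8%). The same core was found for 417 of 9963 tested genes with a window (4.19%) and in 3.57% of all 35116 windows. The longer form GAAANNGAAACT, which contains the core, was found for 14 effectors (43.8%) and for 0.412% of tested genes. A match of letters is a description and no proof of a bound site. The genes were listed as interferon-stimulated, so these shares describe the list and are no independent result. The stretches printed below are a selection from these 22 genes, mostly genes with several matches or with values given per library. They are read 5′ to 3′ on the gene's own strand. Capitals mark every ISRE core match in a stretch, with 10 flanking bases on each side.
IFI6, chr1:27672266-27672358, minus strand: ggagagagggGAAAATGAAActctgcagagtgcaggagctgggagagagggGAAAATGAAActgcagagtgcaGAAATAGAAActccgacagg
IFI27, chr14:94110618-94110660, plus strand: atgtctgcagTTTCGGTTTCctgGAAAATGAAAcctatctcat
IFI44L, chr1:78620274-78620394, plus strand: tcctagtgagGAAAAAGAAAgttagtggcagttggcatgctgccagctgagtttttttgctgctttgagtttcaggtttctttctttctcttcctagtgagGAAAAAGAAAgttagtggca
IFITM1, chr11:313990-314053, plus strand: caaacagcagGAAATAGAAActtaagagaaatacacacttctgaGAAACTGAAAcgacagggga
IFITM3, chr11:320876-320922, minus strand: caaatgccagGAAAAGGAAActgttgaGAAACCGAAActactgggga
BST2, chr19:17405735-17405770, minus strand: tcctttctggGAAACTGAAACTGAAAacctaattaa
DDX60, chr4:168318786-168318850, minus strand: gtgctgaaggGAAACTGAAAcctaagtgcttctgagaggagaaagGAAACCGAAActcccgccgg
DDX60L, chr4:168480523-168480582, minus strand: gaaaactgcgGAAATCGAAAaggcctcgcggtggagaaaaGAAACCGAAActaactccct
ISG20, chr15:88638937-88638966, plus strand: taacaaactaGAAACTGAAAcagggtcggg
RTP4, chr3:187368333-187368386, plus strand: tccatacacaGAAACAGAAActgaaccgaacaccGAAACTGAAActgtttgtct
PARP14, chr3:122680800-122680829, plus strand: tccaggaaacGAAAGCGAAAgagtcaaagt
SAMD9, chr7:93118096-93118125, minus strand: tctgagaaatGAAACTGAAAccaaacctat
DTX3L, chr3:122564322-122564351, plus strand: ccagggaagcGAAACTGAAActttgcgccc
PARP9, chr3:122564322-122564351, minus strand: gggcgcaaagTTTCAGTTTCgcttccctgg

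Of the 22 genes, 10 carried 2 or more core matches and IFI6 carried 3. In BST2 both matches overlapped within 1 run of letters. DTX3L and PARP9 are read outward from the same place, and their matches were 1 and the same site of 10 bases seen from opposite strands. Distinct matches numbered 32, of which 31 began before the start and 20 began within the last 100 bases before it. The GAS element, TTCNNNGAA, known from the response to interferon gamma, reads the same on both strands. It was found for 13 of the 32 effectors (40.6%) and for 8.64% of tested genes. In IFITM1, EPSTI1, IFI27 and MX1 the GAS match shared bases with an ISRE core match, as did a GAS match of BST2. The GAS matches of the other effectors shared none. The GAS and ISRE shares are therefore not independent. The kappaB consensus, bound by NF-kB, was found for 5 effectors (15.6%) and for 17.5% of tested genes. No core match was found in the windows of CMPK2, IFI16, IFI35, PNPT1, SAMD9L, SP100, SP110, SP140, XAF1 and ZC3HAV1, which says only that these letters are not in these windows.

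**Figure D1:**
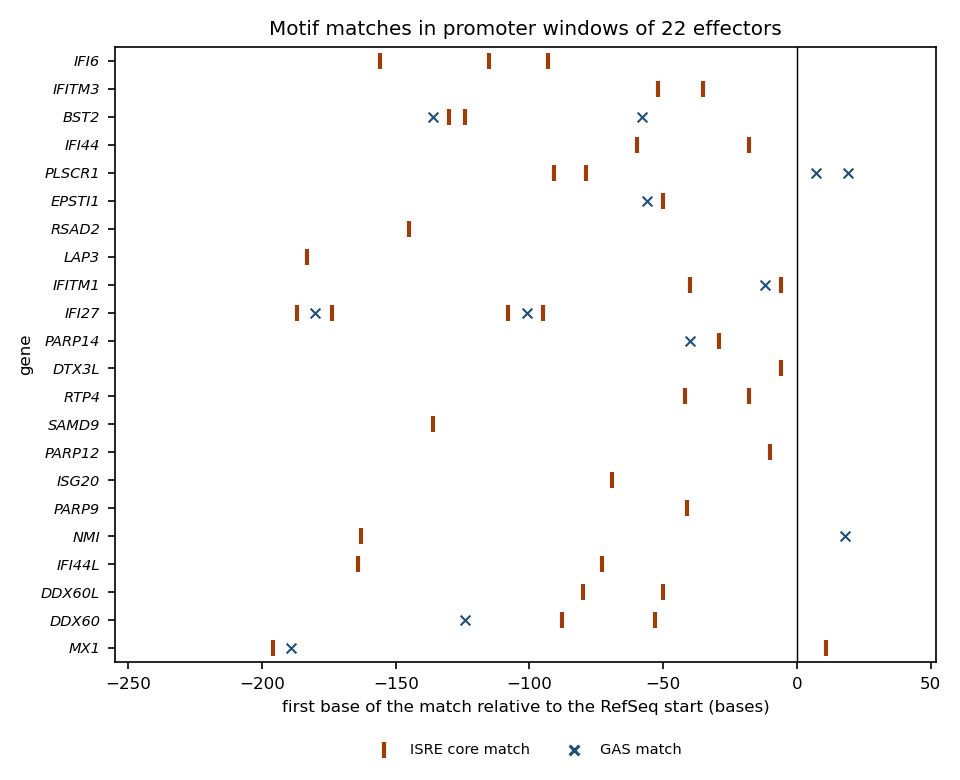
Position of ISRE core matches (bars) and GAS matches (crosses) relative to the RefSeq start, in bases, for the 22 effectors with an ISRE match, ordered by expression. IFI27, IFI44 and PLSCR1 have more than 1 annotated start, so the same site is drawn at more than one distance; most matches lie within 100 bases before the start.

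Many of the effectors are neighbours in the genome. With gaps under 200000 bases, 19 of the 36 lay in 8 groups (coordinates of the deposited table, GRCh38). IFI44L and IFI44 lie on chromosome 1 from 78619922 to 78664078, and CMPK2 and RSAD2 lie head to head on chromosome 2 from 6840570 to 6898239. SP110, SP140 and SP100 span 230167293 to 230545606 on chromosome 2, and PARP9, DTX3L and PARP14 span 122527924 to 122730840 on chromosome 3. DDX60 and DDX60L lie on chromosome 4 from 168216294 to 168537786, and SAMD9 and SAMD9L on chromosome 7 from 93099513 to 93148385. IFITM2, IFITM1 and IFITM3 share a stretch of chromosome 11 from 307631 to 327537. MX2 and MX1 lie on chromosome 21 from 41361999 to 41459214.

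The effectors were abundant in both groups. Levels between genes are compared in FPKM, the authors' count scaled to gene length and to the library's total. The mean over 6 libraries had a median of 38.3 FPKM over the 36 genes, and 29 of them stood in the top 10% of all genes in the table. IFI6, a small interferon-induced membrane protein with antiviral activity, led by far. Its FPKM was 3246, 5820 and 5910 after control siRNA and 5351, 5977 and 2331 after circ siRNA, each given from library 1 to 3 as in all values per library here. This put its mean above 99.97% of all genes, and none of its libraries overlapped with those of the next gene in the order.

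IFITM3, a membrane protein that blocks fusion of incoming viruses, and BST2 (tetherin), which holds budding virions at the cell surface, came next. The FPKM of IFITM3 was 444.6, 730.2 and 741.1 with control siRNA and 703.2, 805.1 and 296.8 with circ siRNA. That of BST2 was 442.7, 760.2 and 708.0 with control siRNA and 622.6, 718.7 and 358.6 with circ siRNA. The levels of both overlapped with each other. Both were lowest in circ library 3, with control library 1 next.

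IFI44, an interferon-induced cytoplasmic protein, had 191.3, 197.4 and 206.7 FPKM with control siRNA and 244.6, 247.6 and 184.7 FPKM with circ siRNA. IFI35, which forms a complex with NMI, had 163.6, 248.0 and 243.5 FPKM with control siRNA and 208.4, 239.4 and 136.1 FPKM with circ siRNA. These 5 genes exceeded 100 FPKM, 24 lay between 20 and 100, and 7 were lower. Of the 35 neighbouring pairs in the order, 32 overlapped over the 6 libraries, and the gaps lay below IFI6, BST2 and IFI35. ZC3HAV1, in sixth place, had 66.6, 47.6 and 48.6 FPKM with control siRNA and 61.6, 58.3 and 132.7 FPKM with circ siRNA. SP140, a nuclear body protein, was lowest, at 0.92 FPKM with control siRNA and 1.40 FPKM with circ siRNA as group means.

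**Figure D2:**
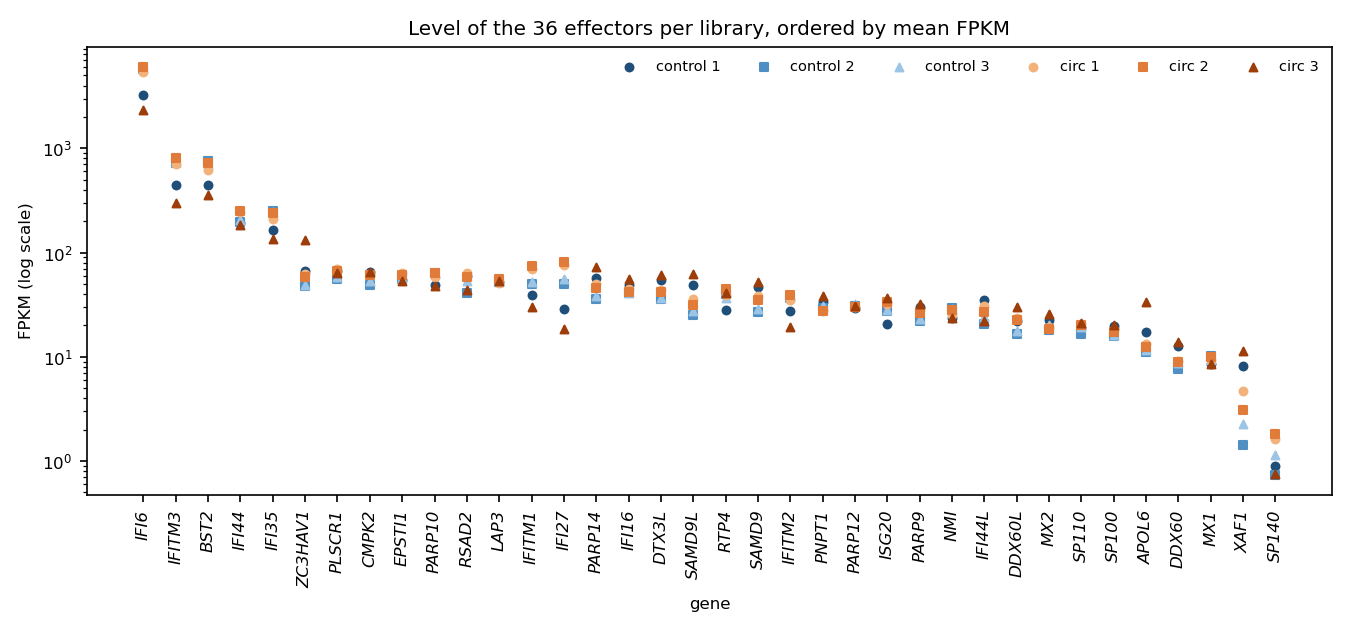
FPKM of each of the 36 effectors in the 6 libraries (log axis), ordered by the mean. IFI6 stands alone at the top, 5 genes exceed 100 FPKM, and control library 1 and circ library 3 lie lowest for IFI6, IFITM3 and BST2.

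The comparison of circ siRNA with control siRNA asks which genes respond to loss of the circular RNA. None of the 36 effectors passed the threshold. In edgeR's quasi-likelihood test over 12469 genes, with Benjamini-Hochberg adjustment and a threshold of 0.05, 0 effectors were higher and 0 lower (background 0% of tested genes higher and 0.00802% lower). Their adjusted p ran from 0.602 to 0.993 in edgeR. An unadjusted p under 0.05 was found for 2 effectors with a higher value (background 3.77%) and 0 with a lower value (background 2.68%). DESeq2 called 0 of them (background 0.481% higher and 0.184% lower), with a smallest adjusted p of 0.398, for DDX60L. At an unadjusted p under 0.05 it found 3 with a higher value (background 3.62%) and 0 with a lower value (background 2.58%). Limma-voom called 0 (background 0% in either direction). It found 2 with a higher value at an unadjusted p under 0.05 (background 3.8%) and 0 with a lower value (background 2.61%).

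The log2 fold changes, circ siRNA minus control siRNA, were positive for 25 effectors and negative for 11. That is 69.4% positive, against 48.8% of tested genes. Their median was 0.125, against -0.007 over all tested genes, and their values ran from -0.195 (BST2) to 0.667 (XAF1). The value of XAF1 was 0.017 without circ library 3, 1.68 without control library 1, 0.284 without control library 2, 0.407 without control library 3, and 0.83 and 0.98 without circ libraries 1 and 2. The circ libraries all lay above the control libraries for 4 effectors, CMPK2, DDX60L, ISG20 and SP110, which is 11.1% (background 6.64% higher), and below for 0 (background 5.87%). Over both directions the share was near the background of 12.5%. CMPK2 had 264.7, 219.5 and 237.5 CPM with control siRNA and 266.3, 270.7 and 267.4 CPM with circ siRNA. Its gap rested on the TMM scaling. In FPKM its control library 1 (64.6) lay above circ libraries 1 and 2 (61.8 and 61.2). In bulk RNA a smaller number of cells of a type and less RNA per cell cannot be told apart. The 95% interval lay within a 1.5-fold change either way for 17 effectors. It reached a 2-fold change for 7, APOL6, IFI27, IFI6, IFITM1, SP140, XAF1 and ZC3HAV1. For these 7 a change of that size could not be told from none.

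**Figure D3:**
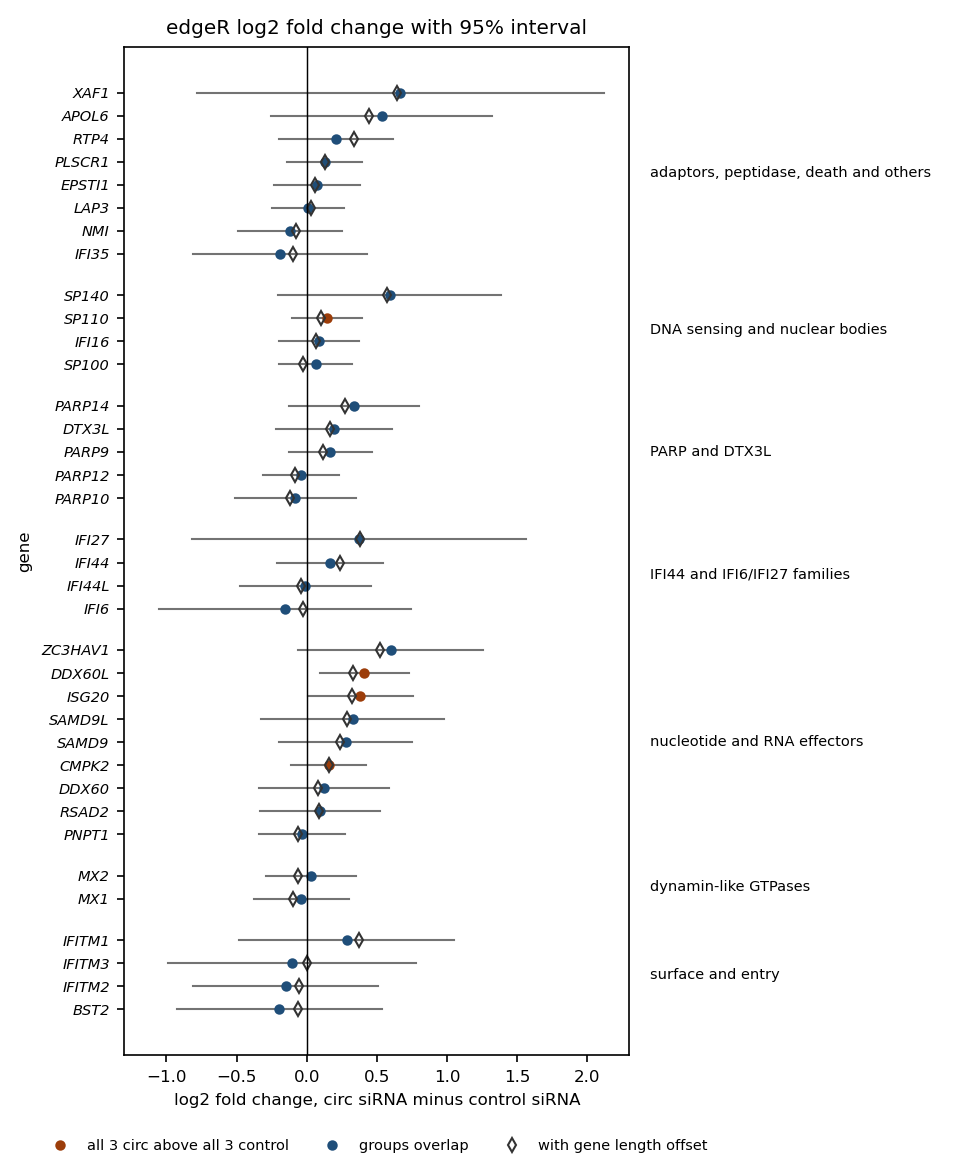
edgeR log2 fold change of each effector, circ siRNA minus control siRNA, with its 95% interval (lines) and the value with a gene length offset (open diamonds), grouped by role. Intervals of 34 of the 36 genes include 0, and the 2 that do not, DDX60L and ISG20, did not pass the adjusted threshold.

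Effectors that act on nucleotides and RNA had the highest median log2 fold change of the 7 role groups (0.277 over 9 genes, 8 positive), and 0 passed the edgeR test. The smallest p of all effectors was that of DDX60L, a helicase-like protein related to the RNA sensor cofactor DDX60. Its level in CPM, the count relative to the TMM-scaled library size, was 255.4, 211.3 and 219.4 with control siRNA and 284.2, 281.7 and 346.9 with circ siRNA. No circ library fell into the control range. DDX60L thus had a log2 fold change of 0.41, with SE 0.14 and a 95% interval from 0.10 to 0.73 (edgeR adjusted p = 0.602). Its neighbour DDX60 had a log2 fold change of 0.12 with overlapping groups, and the difference between the 2 genes was not tested.

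ISG20, a 3′ to 5′ exonuclease that degrades viral RNA, had 140.7, 205.9 and 205.2 CPM with control siRNA and 228.5, 244.1 and 247.0 CPM with circ siRNA. The groups did not overlap, and control library 1 was the lowest of all. ISG20 had a log2 fold change of 0.38, with SE 0.16 and a 95% interval from 0.01 to 0.76 (edgeR adjusted p = 0.756).

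ZC3HAV1 (ZAP), which binds CpG-rich viral RNA and directs it to decay, had 522.8, 412.0 and 412.4 CPM with control siRNA and 508.2, 493.3 and 1037 CPM with circ siRNA. Circ library 3 stood far above the rest. ZC3HAV1 had a log2 fold change of 0.60 (SE 0.29; edgeR adjusted p = 0.804), and of 0.157 without circ library 3. CMPK2, a mitochondrial nucleotide kinase, and RSAD2 (viperin), which turns CTP into a chain terminator of viral RNA synthesis, had log2 fold changes of 0.16 and 0.09. The values of SAMD9 and SAMD9L, related restriction factors of poxviruses, were 0.28 and 0.33. PNPT1, a mitochondrial RNA-degrading enzyme, had -0.04.

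Among the surface and entry proteins the median log2 fold change was -0.129, and 1 of 4 was positive. With a gene length offset the values were 0.375 for IFITM1, -0.055 for IFITM2, 0.004 for IFITM3 and -0.064 for BST2. IFITM3 had 487.1, 882.8 and 877.6 CPM with control siRNA and 810.2, 952.1 and 324.1 CPM with circ siRNA, and BST2 had 464.0, 879.1 and 801.9 CPM and 686.1, 813.1 and 374.6 CPM. In both, circ libraries 1 and 2 lay near control libraries 2 and 3, and the low values were those of control library 1 and circ library 3. Their log2 fold changes were -0.11 (95% interval -0.99 to 0.78) and -0.20 (-0.93 to 0.54). IFITM1 had 0.28 and IFITM2 -0.15, also with overlapping groups. IFITM1 and IFITM2 share 351 exon bases on the same strand, so their counts may have been split and are uncertain.

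The dynamin-like GTPases MX1 and MX2, which trap viral nucleocapsids and restrict viral entry into the nucleus, gave narrow intervals around 0. The log2 fold change of MX1 was -0.04 (95% interval -0.38 to 0.30) and that of MX2 was 0.03 (-0.29 to 0.35). The sign of MX2 turned with a gene length offset (-0.0649).

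In the IFI44 and IFI6/IFI27 group, 2 of 4 values were positive. IFI6 had 2602, 5147 and 5119 CPM with control siRNA and 4510, 5171 and 1862 CPM with circ siRNA. For IFI6 the log2 fold change was thus -0.16, and its 95% interval ran from -1.06 to 0.74. IFI44 had 371.1, 422.6 and 433.4 CPM and 498.9, 518.5 and 357.1 CPM (log2 fold change 0.16). IFI27, a mitochondrial interferon-induced protein, had 112.8, 215.6 and 239.9 CPM with control siRNA and 318.1, 343.0 and 72.9 CPM with circ siRNA. Circ libraries 1 and 2 were thus the highest of all 6 and circ library 3 the lowest. IFI44L, next to IFI44, had -0.01.

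Of the ADP-ribosyl transferases, PARP14, PARP9 and DTX3L, the ubiquitin ligase partner of PARP9, had positive values, and PARP10 and PARP12 negative ones. PARP14 had 555.3, 385.6 and 408.0 CPM with control siRNA and 507.6, 480.9 and 714.8 CPM with circ siRNA. The groups overlapped, since control library 1 exceeded circ libraries 1 and 2. Its log2 fold change was 0.34 (SE 0.20; edgeR adjusted p = 0.864). PARP9 and DTX3L, which share the ISRE site printed above, had 0.17 and 0.19.

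The nuclear proteins IFI16, a DNA sensor, and SP100, SP110 and SP140, which sit in nuclear bodies, all had positive values, with a median of 0.117. SP140 had 4.76, 4.34 and 6.48 CPM with control siRNA and 9.04, 10.4 and 3.98 CPM with circ siRNA. Circ libraries 1 and 2 were highest and circ library 3 lowest. SP140 had a log2 fold change of 0.59, with SE 0.35 and a 95% interval from -0.20 to 1.39 (edgeR adjusted p = 0.864). SP110 had 123.7, 120.2 and 137.7 CPM and 141.0, 142.7 and 138.2 CPM, a small step with no overlap (log2 fold change 0.15).

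In the remaining group of 8, which holds the IFI35 and NMI partners, the aminopeptidase LAP3, the scramblase PLSCR1 and the XIAP antagonist XAF1, 6 values were positive and the median was 0.1. APOL6, an apolipoprotein L family member, had 165.0, 116.2 and 119.2 CPM with control siRNA and 134.2, 129.3 and 316.8 CPM with circ siRNA. Circ library 3 was the highest and the other circ libraries lay within the control range. Its log2 fold change was 0.53 (SE 0.34; edgeR adjusted p = 0.870), and without circ library 3 it was -0.0188. RTP4, a receptor chaperone with antiviral activity, had 0.21, EPSTI1 0.07, PLSCR1 0.13 and LAP3 0.01, while IFI35 and NMI had -0.19 and -0.12.

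Libraries also differed in a way that cut across the groups. Control library 1 and circ library 3 stood apart from the other 4 libraries. For 13 effectors both of them lay above all 4 others (background 23.4%), among them XAF1, APOL6, SAMD9L, ZC3HAV1, SAMD9, DDX60 and PARP14. For 14 both lay below all 4 others (background 23.4%), among them IFI27, IFI6, IFITM3, BST2, IFITM1, IFITM2 and IFI35. Together this pattern held for 27 of 36 effectors (75%), against 46.8% of tested genes. XAF1 had the widest range, with 51.8, 9.99 and 15.6 CPM after control siRNA and 31.2, 21.2 and 70.9 CPM after circ siRNA, each from library 1 to 3. Its lowest and highest libraries differed by 2.81 on the log2 scale. A range above 1 on that scale was found for 12 effectors (33.3%; background 21.7%).

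**Figure D4:**
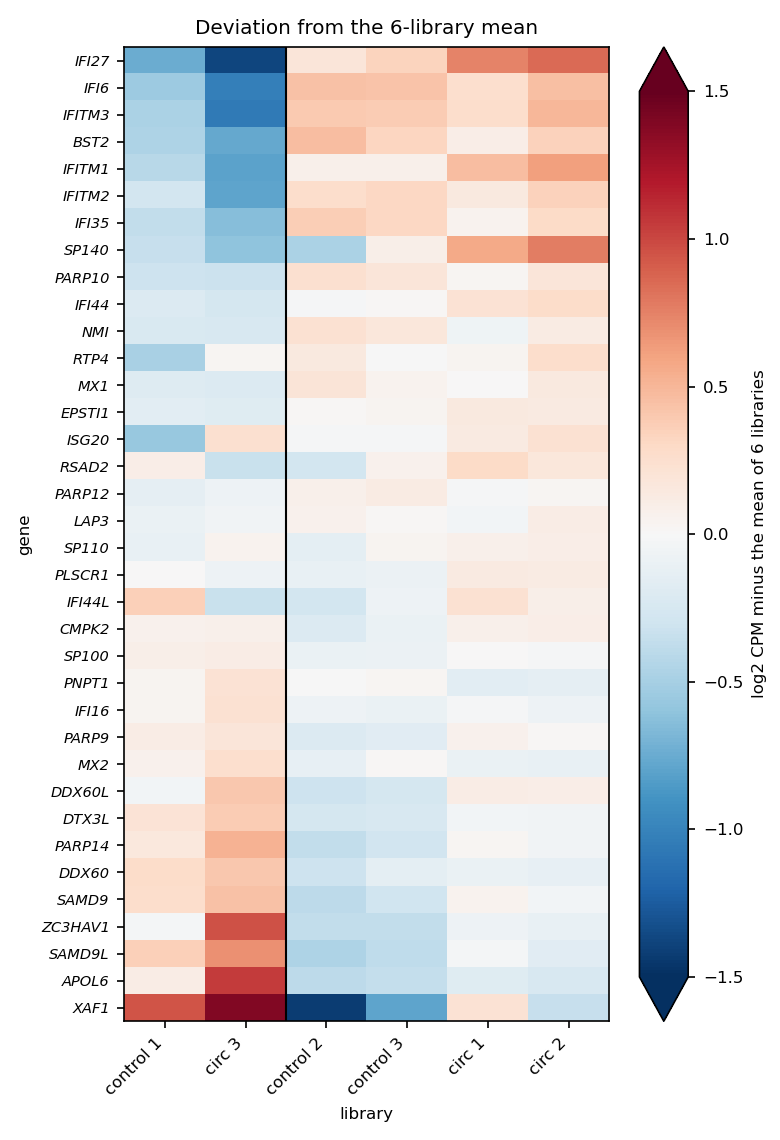
Deviation of log2 CPM from the 6-library mean (colour) for each effector and library, sorted by how far control library 1 and circ library 3 lie from the other 4. The top rows (IFI27, IFI6, IFITM3, BST2) are low and the bottom rows (XAF1, APOL6, SAMD9L, ZC3HAV1) high in those 2 libraries, left of the line.

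The direction of this pattern went with gene length. The 13 effectors that were high in control library 1 and circ library 3 had lengths from 5291 to 14134 bases in the table (median 7150). The 14 that were low had lengths from 842 to 8616 bases (median 2675). Across the 36 genes, which share libraries and are not replicates, Spearman's rho of the deviation with length was 0.62 in control library 1 and 0.69 in circ library 3. It was -0.64 in control libraries 2 and 3, and -0.40 and -0.67 in circ libraries 1 and 2. Over all tested genes rho was 0.47, -0.44 and -0.40 in control libraries 1, 2 and 3 and 0.05, -0.29 and 0.39 in circ libraries 1, 2 and 3, so the fall of the effectors in circ library 1 was not seen over all genes. The part of gene length in the values of single effectors was not tested. With an offset for each library's length trend, 0 effectors passed the edgeR threshold (background 0.00802% higher and 0.0401% lower), and 24 of 36 values were positive with a median of 0.094. An unadjusted p under 0.05 was then found for 3 effectors with a higher value, DDX60L, ZC3HAV1 and RTP4 (background 4.56%), and for 0 with a lower value (background 3.88%).

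**Figure D5:**
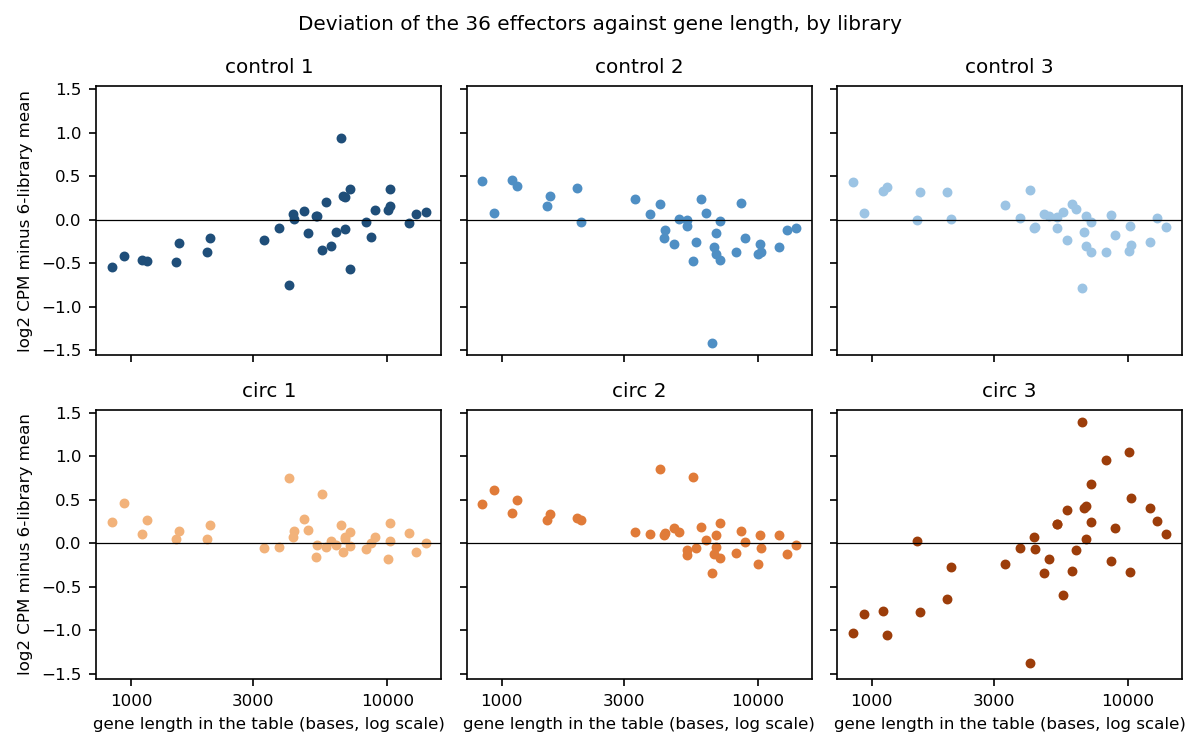
Deviation of log2 CPM from the 6-library mean against gene length in bases (log axis) for the 36 effectors, 1 panel per library. Points rise with length in control library 1 and circ library 3 (rho 0.62 and 0.69) and fall in the other 4.

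Set against each other, the libraries that stand apart and the other 4 did not give the same picture for every effector. This split was chosen after these data showed that control library 1 and circ library 3 stand apart. No label pairs them, and their contrast sets 1 library against 1. The effectors share these libraries, so signs that match between the contrasts are no replication. The 16 effectors with higher values both in circ library 3 over control library 1 and in circ libraries 1 and 2 over control libraries 2 and 3 made up 44.4% (background 27.1%). They included DDX60L, ISG20, ZC3HAV1, PARP9, DTX3L, PARP14, SAMD9 and SAMD9L. Another 12 effectors (33.3%; background 44.4%) had opposite signs in the 2 contrasts. For 8 of these 12, among them IFI27, IFI44, IFI44L, IFITM1, RSAD2 and SP140, the 4 libraries gave a higher and the pair a lower value. The median over the 36 effectors was 0.152 in the 4 libraries and 0.033 in the pair, on the log2 scale, against -0.004 and -0.007 over all tested genes.

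Without control library 1 and circ library 3, edgeR called 15 effectors higher (41.7%; background 7.38%) and 0 lower (background 7.43%). They were CMPK2, DDX60L, IFI27, IFI44, IFI44L, IFITM1, PARP14, PARP9, PLSCR1, RSAD2, SAMD9, SAMD9L, SP140, XAF1 and ZC3HAV1. The largest log2 fold changes were 1.04 for XAF1 (SE 0.20; edgeR adjusted p = 0.00551) and 0.85 for SP140 (SE 0.20; adjusted p = 0.0149). IFI27 had 0.54 (SE 0.08; adjusted p = 0.0011), IFITM1 0.47 (adjusted p = 0.00516) and DDX60L 0.40 (adjusted p = 0.00371). Only 2 libraries per group enter this fit, and the ones left out are those known to add the most spread. The libraries kept were the closest pair of each group, with a chi-square per gene between them of 5.98 (control) and 6.56 (circ). Pairs with a library left out had 39.61 to 72.75. The adjusted p-values rest on this small spread in libraries chosen from these data. They are therefore no test of the siRNA, and the calls are no measure of a larger effect. Of the 15, 8 had a higher value in circ library 3 than in control library 1 as well, and 7 had a lower one. ISG20 was not among the 15 (log2 fold change 0.21; adjusted p = 0.0708), and neither were IFI6, IFITM3 and BST2, whose values were -0.08, 0.01 and -0.16.

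Interferon genes act upstream of the effectors. IFNB1, which encodes interferon beta, had 171, 233 and 200 counts with control siRNA and 185, 181 and 298 counts with circ siRNA, so the groups overlapped. Its log2 fold change was 0.12 (95% interval -0.48 to 0.72; edgeR adjusted p = 0.932). IFNL1, a type III interferon, had 43, 45 and 39 counts and 53, 76 and 71 counts, with all circ libraries above all control libraries. Its log2 fold change was 0.64 (SE 0.23; edgeR adjusted p = 0.659). Of 21 interferon genes in the table, these 2 passed the filter. IFNLR1, which encodes a chain of the receptor for type III interferons, had 0 counts in all 6 libraries, which allows up to 0.179 to 0.203 CPM per library.

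In the other lists of the pathway, edgeR called 0 of 57 tested genes, with 8 at an unadjusted p under 0.05 and a higher value (background 3.77%) and 0 with a lower one (background 2.68%). DESeq2 called 1 (OASL) and limma-voom 0. Positive values were found for 45 (background 48.8% of tested genes) and negative values for 12, and the median log2 fold change was 0.183. Groups did not overlap for 16 (28.1%; background 6.64% higher), all with higher circ values. In the list of IFIT, OAS, ISG15 and GBP genes, 16 of 19 were positive with a median of 0.26. OASL, an antiviral relative of the oligoadenylate synthetases, had 264.5, 333.5 and 343.7 CPM with control siRNA and 466.4, 513.8 and 490.8 CPM with circ siRNA. This step was 1.56-fold (log2 fold change 0.64, SE 0.14; edgeR adjusted p = 0.376, DESeq2 adjusted p = 0.0163). GBP1, an interferon-induced GTPase, had a log2 fold change of 0.49 (SE 0.13; edgeR adjusted p = 0.499). These lists share their libraries with the effectors and are no independent support.

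Of the RNA and DNA sensors 10 of 12 were positive. The smallest p belonged to DDX58 (RIG-I) with a log2 fold change of 0.37 and IFIH1 (MDA5) with 0.35, both without overlap of the groups. Among STAT and IRF factors 6 of 9 were positive. STAT2, a subunit of ISGF3, had 0.27 with overlapping groups. Of receptors and JAKs 5 of 8 were positive, with IFNGR1 at 0.18 and JAK1 at 0.33. Of negative regulators 6 of 7 were positive, with SOCS3, a feedback inhibitor of JAKs, at 0.24 and PTPN6, a phosphatase, at -0.29. None of these genes passed the edgeR threshold. Without control library 1 and circ library 3, 14 of 56 pathway genes were called higher (25%, background 7.38%) and 0 lower. These calls rest on the libraries left in that fit and are no test of the siRNA.

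Library depth was even, from 14793902 to 16736972 counts. All 10 macrophage markers had counts, but CD68 had 1 to 5, MRC1 2 to 6 and MARCO 9 to 51 per library, and CSF1R and ITGAX made up most of the sum. The list had a summed level of 1930 to 2359 CPM of the library totals in the control group and of 1951 to 2211 CPM in the circ group. Markers of plasmacytoid dendritic cells, strong producers of interferon, summed to 83.6 to 85.9 and 85.7 to 97.5 CPM from 4 of 6 members. Their defining markers CLEC4C and LILRA4 were at 0. The B cell list summed to 24.5 to 26.7 and 35.0 to 43.8 CPM from 7 of 8 members, without overlap of the groups and with BLK at 0. Its part in the values of the effectors was not tested. The neutrophil list gave 35.99 to 43.9 and 43.4 to 57.4 CPM from 6 of 8 members, with CEACAM8 and LCN2 at 0. The T and NK cell list gave 3.14 to 6.26 and 3.65 to 4.24 CPM from 6 of 8 members in the table, with CD2 and CD3G at 0. The fibroblast list gave 25.1 to 31.4 and 25.8 to 29.3 CPM from 8 of 8 members. The epithelial list gave 0.181 to 0.693 and 0.119 to 0.744 CPM from 5 of 7 members, with EPCAM and KRT5 at 0.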

How the data were processed

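Poly-A libraries were sequenced from both ends (labels' protocols). CASAVA, cutadapt, HISAT2 and build GRCh38 are named in the submitters' processing notes; which counter, strand setting and annotation were used is not given in the sources used here. Deposited were whole-number counts for each gene in each library, and the FPKM values beside it were scaled by the authors to gene length and to the library's total in the table, as checked from the counts. FPKM was used for levels between genes, and counts for all tests.

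edgeR 4.0.16 (R 4.3.3) was run with TMM, filterByExpr (minimum count 10), a quasi-likelihood F test on group and Benjamini-Hochberg adjustment over 12469 genes; CPM is on the TMM scale unless stated. Standard errors come from the F statistic. limma 3.58.1 (voom) and DESeq2 1.42.0 were alternatives, as were other filters and scalings, a replicate block, a length offset (spline, 4 degrees of freedom) and left-out libraries. In simulated counts of this comparison over 12469 genes, edgeR recovered 57% of 100 genes changed 2-fold and 7% of 100 changed 1.5-fold. Of the unchanged genes 5 were called. The counts were drawn gene by gene, without a length trend and without libraries that stand apart, so these shares do not cover that pattern. Depth was 14793902 to 16736972 counts per library, so 3 counts equal 0.179 to 0.203 CPM, which covers counting error only. Libraries of the same group differed by more than sampling noise (chi-square per gene at least 5.98). Control libraries 2 and 3 (5.98) and circ libraries 1 and 2 (6.56) were close, and the other pairs within a group had 39.61 to 72.75. Motifs were searched with Python 3.11.15 in RefSeq windows.

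The effectors, gene lists and alternatives were chosen with earlier results of these data known. All 36 effectors are named. Values per library are given for the 6 with the smallest p and the 6 with the highest FPKM, and for others where the text says how libraries differ. Of each pathway list the 2 genes with the smallest p are named, except 1 that is not reported here, and IFNB1 and IFNL1 always; IFNLR1 was named after its values were seen.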

Additional observations from a re-analysis of the deposited data

How the results depend on the processing

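In every fit with all 6 libraries, with edgeR under each scaling and filter, with DESeq2 and with limma-voom, 0 effectors were called in either direction, also at an adjusted p under 0.1 in edgeR. Without control library 1 and circ library 3 there were 15 higher (41.7%, background 7.38%). Of the pathway genes, edgeR called 0 higher, DESeq2 1 (background 0.481%), and edgeR without those 2 libraries 14 (25%, background 7.38%). Alternatives for these lists were added after seeing the data. The drop to 2 libraries per group removes those that add most spread, so its calls are no test of the siRNA. The cause of the other changes was not tested. As each library was left out, 0 were called, 25 to 29 effectors were positive and the median ran from 0.092 to 0.132. Over all tested genes the median then ran from -0.022 to 0.017. Shares of all tested genes called or positive are not given here for some fits. These are the fits with a library left out, a replicate block, another scaling or filter, or the threshold of 0.1. Their counts are therefore no result about the effectors. The replicate numbers gave no clear pairing, with correlations of same-numbered deviations of -0.17, 0.46 and -0.37 and the highest, 0.53, between control library 1 and circ library 3. With the replicate block 0 effectors were called and 25 were positive, with a median of 0.124, and with the block and the length offset 23 were positive, with a median of 0.093.

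Of 576 effector values under alternatives, 528 had the same sign and call, 34 changed sign and 15 were newly called, of which IFI44L also changed sign. With the length offset the log2 fold changes were 0.00428 for IFITM3, -0.0649 for MX2 and -0.0267 for SP100, and with the replicate block added -0.0618 for MX2 and -0.0261 for SP100. Without control library 1 and circ library 3 they were 0.00578 for IFITM3, -0.0581 for MX2, 0.337 for IFI44L and -0.000796 for LAP3. With each library left out, the ranges that crossed 0 were -0.377 to 0.12 for IFITM2, -0.402 to 0.234 for IFITM3, -0.431 to 0.0685 for BST2, -0.136 to 0.0532 for MX1, -0.1 to 0.0945 for MX2 and -0.0269 to 0.26 for RSAD2. They were -0.0717 to 0.312 for DDX60, -0.169 to 0.0317 for PNPT1, -0.14 to 0.19 for IFI44L, -0.429 to 0.175 for IFI6, -0.231 to 0.0483 for PARP10 and -0.116 to 0.00622 for PARP12. They were -0.00718 to 0.148 for IFI16, -0.397 to 0.0329 for IFI35, -0.0474 to 0.0458 for LAP3 and -0.0188 to 0.755 for APOL6.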

Other observations

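Overlapping gene models limit what the counts of some effectors can show, since the use of strand in counting is not known. In GENCODE 29, 38.3% of the exon bases of XAF1 are shared with PRAL on the opposite strand, and 21.3% of those of IFITM3 with the lincRNA AC136475.5. SP110 shares 18.4% with the antisense gene AC009950.1. IFITM1 shares 32.5% of its exon bases with IFITM2 on the same strand, and SP100 shares 4.3% with HMGB1P3. Smaller overlaps on opposite strands join PARP10 and GRINA (324 bases), MX1 and AP001610.1 (236 bases), PARP10 and SPATC1 (197 bases), SP100 and AC010149.1 (117 bases), PARP9 and DTX3L (217 bases), SP140 and SP110 (170 bases) and RSAD2 and CMPK2 (14 bases). Reads of such pairs cannot be told apart here.

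The ISRE matches were spread unevenly over the library pattern. Of the effectors that were low in control library 1 and circ library 3, 11 of 12 with a promoter window held a core match. Of those that were high in these libraries, 5 of 11 did, and of the rest 6 of 9. Effectors with and without a match had median log2 fold changes of 0.125 (22 genes) and 0.151 (10 genes). This was seen after the values were known and was not tested.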
